A study of Mus musculus with 14 samples.

Results

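The Iroquois genes Irx1 to Irx6 encode homeodomain transcription factors, and their signals were followed array by array in mouse hearts at the embryonic stage E12.5. The members were the probe sets of Affymetrix Mouse Gene 1.0 ST arrays that the platform annotation pairs with 1 of these 6 symbols. All 6 were measured, each by 1 probe set, among 19931 named genes. The series asked about cooperative and antagonistic roles of Irx3 and Irx5, and its 14 arrays fall into 4 genotypes. The reference was Irx5+/- (3 arrays), which carries 1 null allele of Irx5. Irx3-/-;Irx5+/- hearts (4 arrays) lack Irx3 and keep 1 working copy of Irx5. Irx5-/- hearts (3 arrays) lack Irx5, and Irx3-/-;Irx5-/- hearts (4 arrays), called double null here, lack both. Every group thus carries at least 1 Irx5 null allele, and no wild-type group was analysed here. No label states how the alleles were built, the strain, or how many hearts went into an array. The labels do not say that the arrays of a group are separate embryos, so each p-value reflects the spread among these samples alone, which may be technical.

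Iroquois factors belong to the TALE class of homeodomain proteins, which have an extended loop between the first helices of the homeodomain. In mammals the family lies in paired clusters, each of 3 genes, and its members are expressed in overlapping regions of the heart. Irx4 is known as a ventricular regulator, Irx3 as a gene of the trabeculated myocardium and later of the ventricular conduction system, and Irx5 as a repressor of the potassium channel gene Kcnd2 in the ventricular wall. In the embryo Irx5 is also found in the endocardium.

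One cluster lies on chromosome 8 of the mouse (assembly GRCm38.p6, whole gene models from the RefSeq gene table). It holds Irx3 at chr8:91798511-91801654, Irx5 at chr8:92357796-92361456 and Irx6 at chr8:92674289-92680956, with gaps of 556.1 kb between Irx3 and Irx5 and 312.8 kb between Irx5 and Irx6. The other lies on chromosome 13 and holds Irx1 at chr13:71958232-71963723, Irx2 at chr13:72624430-72634196 and Irx4 at chr13:73259589-73269622. No source used here states which exon or untranslated region each probe set reads, or whether it reads inside a deleted part. A probe set lying outside a deletion cannot check the genotype of its gene.

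The 250 bases before the start of Irx3 are shown because Irx3 was the member that passed the test in these hearts. RefSeq windows of GRCm38.p6 were held for 3 of the 6 members (Irx2, Irx3 and Irx4). The capitals mark AAGTG, the core of the element bound by the cardiac homeodomain factor Nkx2-5, whose first base lies 150 bases before the start. The window runs on the minus strand, chr8:91801655-91801904.
Irx3: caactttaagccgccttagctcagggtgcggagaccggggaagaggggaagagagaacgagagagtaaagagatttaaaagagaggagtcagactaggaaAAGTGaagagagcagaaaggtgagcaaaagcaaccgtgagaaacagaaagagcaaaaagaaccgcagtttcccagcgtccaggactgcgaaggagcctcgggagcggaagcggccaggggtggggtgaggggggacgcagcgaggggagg
Motifs were searched on both strands. AAGTG stood in 40.7% of 32851 windows of the same length, once in the Irx2 window and not in the Irx4 window. ACANNTGT, the palindromic element of Iroquois factors, stood in 6.31% of windows, and was in none of the windows of Irx2, Irx3 and Irx4. G and C made up 56.0% of the Irx3 window, 68.4% of the Irx2 window and 68.8% of the Irx4 window. The arrays measured nothing at these windows, and a match is a description of letters only.

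Values are log2 intensities, which give no read depth, and the number of arrays limits their precision. Array medians ran from 7.89 to 7.99. The heart label was checked against defining markers: the sarcomere genes Tnnt2 and Actc1 read 12.85 to 13.71 and 12.85 to 13.77 over all arrays, and the cardiac factor Nkx2-5 read 8.81 to 9.48. The liver gene Alb read 6.07 to 6.44 and the lung gene Sftpc 5.96 to 6.61, below every array median. The mean of 20 sarcomere genes ran from 10.13 to 11.93 in Irx5+/- hearts, 11.42 to 12.24 in Irx3-/-;Irx5+/-, 11.55 to 12.59 in Irx5-/- and 11.97 to 12.43 in double null hearts, with Irx5+/- replicate 3 lowest. The mean of 20 endothelial and endocardial genes ran from 10.24 to 10.55, 10.01 to 10.41, 9.52 to 9.79 and 9.24 to 10.10 in the same order. In RNA from whole hearts, fewer cells of a type and less RNA per cell cannot be told apart.

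Every array of the 3 other genotypes read lower for Irx3 than every Irx5+/- array. In Irx5+/- hearts its log2 signal was 8.43, 8.53 and 8.44 in replicates 1 to 3, a mean of 8.47 ± 0.05 (SD, n = 3). The Irx3-/-;Irx5+/- arrays read 7.87, 7.89, 7.93 and 8.17 (7.97 ± 0.14, SD, n = 4), and every array lay below every reference array, as for 2.87% of all genes. Hearts labelled Irx5-/-, whose label names no Irx3 null allele, had 8.25, 8.14 and 8.19 (8.19 ± 0.06, SD, n = 3), again below every reference array, as for 9.52% of all genes. Double null hearts had 7.86, 7.69, 7.75 and 7.60 (7.73 ± 0.11, SD, n = 4), and these lay below every array of each other group. Of all genes, 5.58% did so against Irx5+/-, 2.18% against Irx3-/-;Irx5+/- and 1.98% against Irx5-/-. The Irx3-/-;Irx5+/- group was cleared only by 7.86 against 7.87. A signal between 7.60 and 8.17 was read in all 8 arrays labelled Irx3-/-, and how much of it is probe background was not tested.

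**Figure D1:**
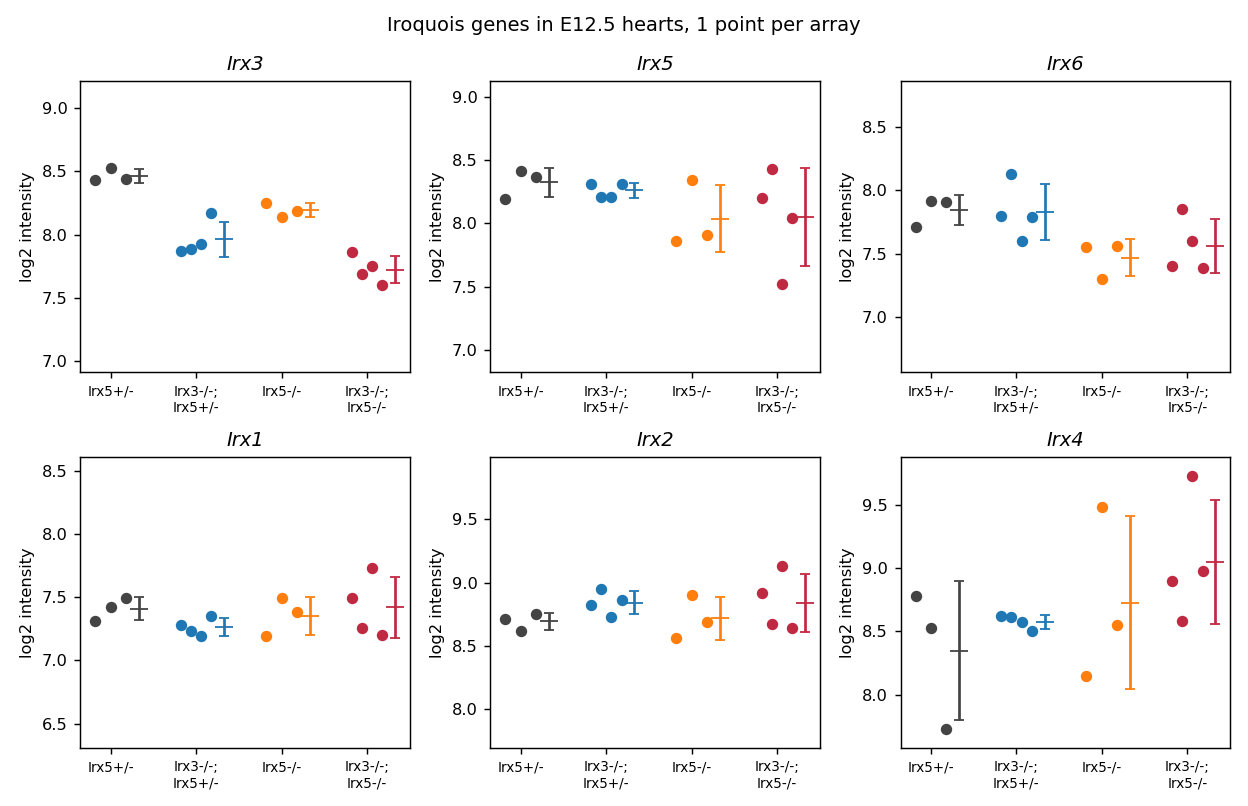
Log2 intensity of the 6 Iroquois genes, 1 panel per gene and 1 point per array in replicate order, with the group mean and SD as a bar beside the points. All panels span the same range of log2 units. The Irx3 panel steps from 8.47 in Irx5+/- to 7.73 in double null hearts, while the Irx4 panel spreads from 7.73 to 9.73 with overlapping groups.

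The array labelled Irx3-/-;Irx5+/- replicate 4 stood apart in 2 ways. Its title, source name and genotype field give that genotype, but its description field gives Irx5-/-. Its Irx3 signal of 8.17 was the highest of the arrays labelled Irx3-/- and lay inside the range of the Irx5-/- arrays (8.14 to 8.25). Its Irx5 signal of 8.31 equalled the highest of its labelled group and lay within the range of the Irx5-/- arrays (7.86 to 8.34). Some other values of this array lay outside the range of the Irx5-/- arrays and within that of the other Irx3-/-;Irx5+/- arrays. Its Irx6 signal was 7.79 (Irx5-/- arrays 7.30 to 7.56), that of the long RNA gene Crnde 8.16 (7.17 to 7.67), and the mean of 6 erythroid genes 8.48 (7.18 to 7.45). Further values went the opposite way, within the Irx5-/- range and outside that of the other Irx3-/-;Irx5+/- arrays. Among them were Irx4 at 8.50 (Irx5-/- arrays 8.15 to 9.48) and Irx1 at 7.35 (7.19 to 7.49). The means of 10 epicardium genes (8.62, against 8.16 to 9.84) and 11 TALE genes (9.16, against 9.01 to 9.56) did so too. Its endothelial mean of 10.41 was the highest of its labelled group and also above the Irx5-/- range (9.52 to 9.79). It was kept under its title on the labels alone, and each Irx3 difference that uses it is given without it as well.

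Irx3 fell by 0.74 ± 0.10 (SE) on the log2 scale in double null hearts against Irx5+/- hearts, which is 0.599 of the reference signal (95% interval -0.95 to -0.53; adjusted p = 0.0201 in limma over all genes). It was the only member of 6 called in that comparison, where 0.0201% of all genes were called, and it had rank 3 by p among 19931. The call was lost without either Irx5+/- replicate 2 or 3 or double null replicate 3 or 4 (adjusted p = 0.0616 to 0.0985), with the difference at -0.75 to -0.70. It was also lost in a fit of those groups alone, with a replicate block, and with the sarcomere or the endothelial mean as a covariate, at -0.75 to -0.63.

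No other pairwise difference of Irx3 was called. In Irx3-/-;Irx5+/- against Irx5+/- hearts it was -0.50 ± 0.10 (SE; adjusted p = 0.673 in limma), and -0.57 without replicate 4. Irx3 was 1 of 6 members whose groups did not overlap, lower in Irx3-/-;Irx5+/- as for 2.87% of all genes, and 0% of genes were called. In Irx5-/- against Irx5+/- hearts it was -0.27 ± 0.10 (adjusted p = 0.4). There 2 of 6 members, Irx3 and Irx6, lay wholly below the reference, where 9.52% of all genes did so and 0% were called.

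In the other comparisons Irx3 was again lowest in double null hearts. Against Irx5-/- hearts Irx3 differed by -0.47 ± 0.10 (SE; adjusted p = 0.796 in limma), with no overlap, lower as for 1.98% of all genes. Against Irx3-/-;Irx5+/- hearts it differed by -0.24 ± 0.09 (adjusted p = 0.597), and by -0.17 without replicate 4. These groups again did not overlap, though only by 7.86 against 7.87, lower as for 2.18% of all genes, where 0.00502% were called. Irx5-/- hearts stood 0.23 ± 0.10 above Irx3-/-;Irx5+/- hearts (adjusted p = 0.764), with overlap at replicate 4, and 0.30 above them without it. The difference attached to losing Irx3 was thus -0.50 with 1 copy of Irx5 and -0.47 with none, and the interaction, where 0% of genes were called, was 0.03 ± 0.14 (95% interval -0.26 to 0.33; adjusted p = 1), and 0.10 without replicate 4.

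An additive model with a term for each gene used all arrays for both. For loss of Irx3 (8 arrays against 6), Irx3 itself differed by -0.48 ± 0.07 (SE; unadjusted p = 3.14e-06, adjusted p = 0.0626 in limma), the smallest p of all genes, with 0% of genes called. Without replicate 4 of the Irx3-/-;Irx5+/- label it was -0.52 and called (adjusted p = 0.0264), and with that array placed in Irx5-/- it was -0.51 and called (adjusted p = 0.00737). Over the 9 alternative settings, that placement among them, its adjusted p ran from 0.00737 to 0.935 in limma, and 3 called it. With each of 14 arrays left out in turn it ran from 0.0264 to 0.322, and 1 fit called it. For loss of Irx5 (7 arrays against 7), Irx3 differed by -0.25 ± 0.07 (unadjusted p = 0.00157, adjusted p = 0.133), rank 229 by p, where 0.00502% of genes were called, and by -0.22 without replicate 4. Arrays of the factor levels overlapped in both cases.

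**Figure D2:**
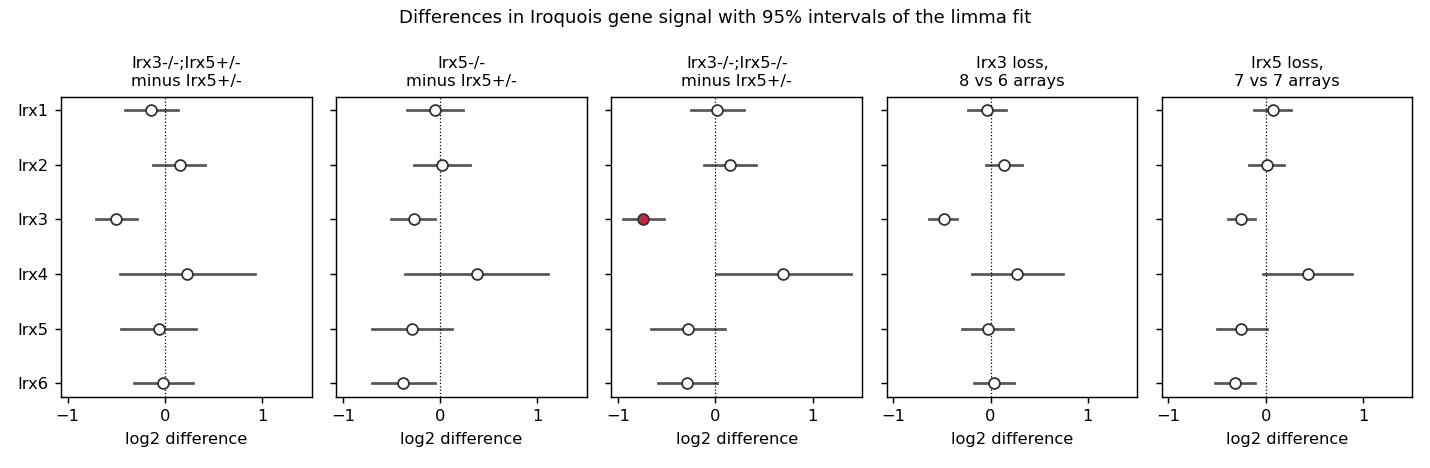
Log2 differences (points) of the 6 Iroquois genes with 95% intervals of the limma fit (lines), for the 3 genotypes against Irx5+/- and for the additive terms for loss of Irx3 and of Irx5. A filled point marks an adjusted p under 0.05, which is Irx3 in double null hearts at -0.74.

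Irx5, the other targeted gene, did not sort the Irx5-/- from the Irx5+/- arrays. Its log2 signal was 8.19, 8.41 and 8.37 in Irx5+/- hearts (8.32 ± 0.11, SD, n = 3) and 8.31, 8.21, 8.21 and 8.31 in Irx3-/-;Irx5+/- hearts (8.26 ± 0.06, SD, n = 4). Irx5-/- hearts had 7.86, 8.34 and 7.91 (8.04 ± 0.27, SD, n = 3), so that replicate 2 lay among the heterozygous arrays. Double null hearts had 8.20, 8.43, 7.52 and 8.04 (8.05 ± 0.38, SD, n = 4), and replicate 2 of these held the highest Irx5 signal of the series.

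The Irx5 differences were not called. In Irx5-/- against Irx5+/- hearts it was -0.29 ± 0.19 (SE; adjusted p = 0.588 in limma) and -0.44 without Irx5-/- replicate 2. In double null against Irx5+/- hearts it was -0.28 ± 0.18 (adjusted p = 0.532) and -0.10 without double null replicate 3, the array with the lowest Irx5. Loss of the last Irx5 copy in hearts without Irx3 gave -0.21 ± 0.16 (adjusted p = 0.751), and -0.04 to -0.34 with each array left out in turn. The additive term for loss of Irx5 was -0.25 ± 0.12 (adjusted p = 0.341; 95% interval -0.50 to 0.01), and loss of Irx3 with 1 Irx5 copy gave -0.06 ± 0.18 (adjusted p = 1; 95% interval -0.45 to 0.32).

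Over the arrays, 0 of 60 correlations between a member and a cell-type list passed the adjustment, and 7 had an unadjusted exact permutation p under 0.05. The smallest p was that of Irx1 with macrophage genes (r = 0.72, exact permutation p = 0.00145, adjusted p = 0.0868). Irx5 had its smallest p with the endothelial list. After removing group means, Pearson's r between Irx5 and the endothelial and endocardial mean was 0.80 over 14 arrays (exact within-group permutation p = 0.00776, adjusted p = 0.155 over 60 pairs of gene and list). Spearman's rho was 0.82 (exact permutation p = 0.00395, adjusted p = 0.119), and r was 0.67 without the 2 arrays farthest from the Irx5 median. Double null replicate 3 had the lowest value of both, 7.52 for Irx5 and 9.24 for the list, and double null replicate 2 had the highest of its group in both, 8.43 and 10.10. With the endothelial mean as a covariate, the Irx5 difference turned to 0.21 in Irx5-/- and 0.27 in double null against Irx5+/- hearts, both uncalled (adjusted p = 0.749 and 0.697 in limma). The endothelial means of Irx5-/- (9.52 to 9.79) and double null arrays (9.24 to 10.10) did not overlap those of Irx5+/- arrays (10.24 to 10.55). That fit therefore cannot tell endothelial content from genotype, and the part of endothelial content in the Irx5 values was not tested.

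**Figure D3:**
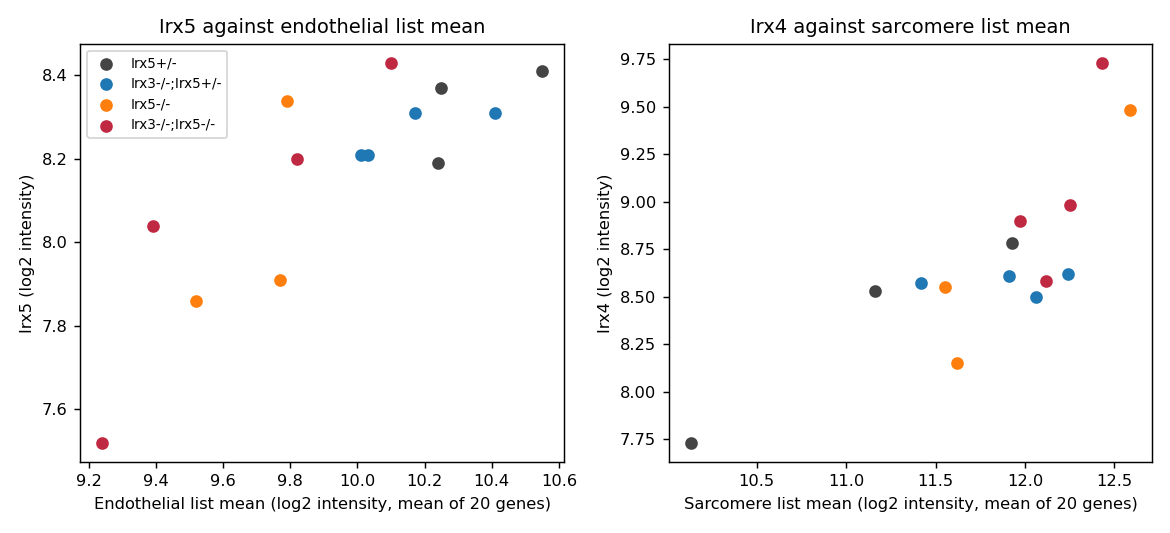
Irx5 log2 intensity against the mean of 20 endothelial and endocardial genes (left), and Irx4 against the mean of 20 sarcomere genes (right), 1 point per array coloured by genotype. The lowest Irx5 array (7.52) has the lowest endothelial mean (9.24), and the lowest Irx4 array (7.73) has the lowest sarcomere mean (10.13).

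Irx6, the last gene of the chromosome 8 cluster and not targeted here, was lower in Irx5-/- hearts without reaching a call. Its log2 signal was 7.71, 7.92 and 7.91 in Irx5+/- (7.85 ± 0.12, SD, n = 3) and 7.80, 8.13, 7.60 and 7.79 in Irx3-/-;Irx5+/- hearts (7.83 ± 0.22, SD, n = 4). The 3 Irx5-/- arrays read 7.55, 7.30 and 7.56 (7.47 ± 0.15, SD), and the double null arrays 7.40, 7.85, 7.60 and 7.39 (7.56 ± 0.21, SD, n = 4). The Irx5-/- arrays lay below every heterozygous array, while the double null arrays overlapped both heterozygous groups. All Irx6 values of Irx5-/- and double null arrays (7.30 to 7.85) lay below every array median (7.89 to 7.99). How much of the Irx6 signal is probe background was not tested.

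The Irx6 difference was -0.38 ± 0.15 (SE; unadjusted p = 0.0268, adjusted p = 0.418 in limma) in Irx5-/- against Irx5+/- hearts and -0.36 ± 0.14 (adjusted p = 0.764) against Irx3-/-;Irx5+/- hearts. The latter groups did not overlap, with Irx5-/- lower as for 5.43% of all genes. The double null differed from Irx5+/- by -0.29 ± 0.14 (adjusted p = 0.404) and from Irx3-/-;Irx5+/- by -0.27 ± 0.13 (adjusted p = 0.654). The additive term for loss of Irx5 was -0.32 ± 0.10 (unadjusted p = 0.00534, adjusted p = 0.178). Leaving out each array in turn moved that term between -0.37 and -0.27, and none of these fits called it. Over the other settings that term ran from -0.32 to -0.22 (adjusted p = 0.158 to 0.704 in limma). With the endothelial mean as a covariate, Irx6 differed from Irx5+/- hearts by -0.27 in Irx5-/- and -0.17 in double null hearts (adjusted p = 0.728 and 0.831 in limma).

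The additive terms for loss of Irx5 in the chromosome 8 cluster were -0.25 for Irx3, -0.25 for Irx5 and -0.32 for Irx6, and none was called. Array by array, no correlation between these 3 genes was detected. After removing group means, r was -0.03 between Irx3 and Irx5, -0.04 between Irx3 and Irx6 and 0.02 between Irx5 and Irx6 (14 arrays; exact permutation p = 0.945, 0.933 and 0.959).

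Irx4, the ventricular regulator of the chromosome 13 cluster, was the most variable member, with a residual SD of 0.47, at percentile 94.9 of all genes. Its log2 signal was 8.78, 8.53 and 7.73 in Irx5+/- hearts (8.35 ± 0.55, SD, n = 3) but 8.62, 8.61, 8.57 and 8.50 in Irx3-/-;Irx5+/- hearts (8.58 ± 0.06, SD, n = 4). Irx5-/- hearts had 8.15, 9.48 and 8.55 (8.73 ± 0.68, SD, n = 3), and double null hearts 8.90, 8.58, 9.73 and 8.98 (9.05 ± 0.49, SD, n = 4). Every pair of groups overlapped, and single arrays set the ends of the range.

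Irx4 was 0.70 ± 0.32 (SE; unadjusted p = 0.047, adjusted p = 0.363 in limma) higher in double null than in Irx5+/- hearts, which is not a call. It was 0.39 without Irx5+/- replicate 3. The difference was 0.38 ± 0.34 (adjusted p = 0.687) in Irx5-/- against Irx5+/- hearts, 0.00 without Irx5-/- replicate 2 and 0.07 without Irx5+/- replicate 3. It was 0.47 ± 0.30 (adjusted p = 0.714) in double null against Irx3-/-;Irx5+/- hearts, and 0.24 without double null replicate 3. The additive term for loss of Irx5 was 0.43 ± 0.22 (adjusted p = 0.35), 0.29 without Irx5-/- replicate 2, and 0.10 and 0.18 with the sarcomere or the endothelial mean as a covariate.

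Irx4 had an unadjusted exact permutation p under 0.05 with 3 cell-type lists, and none passed the adjustment. They were the sarcomere list, the epicardium list (r = -0.78, exact permutation p = 0.0178, adjusted p = 0.214) and the trabecular list (r = 0.75, exact permutation p = 0.0332, adjusted p = 0.317). After removing group means, r with the sarcomere mean was 0.77 (exact within-group permutation p = 0.00714, adjusted p = 0.155 over 60 pairs) and rho was 0.81 (exact permutation p = 0.00907, adjusted p = 0.181). Without the 2 arrays farthest from the Irx4 median r was 0.76 (exact permutation p = 0.124). Irx5+/- replicate 3 was lowest in both, at 7.73 for Irx4 and 10.13 for the list, and Irx5-/- replicate 2 held the highest sarcomere mean of 12.59 with an Irx4 signal of 9.48. With the sarcomere mean as a covariate the Irx4 difference turned to -0.21 in Irx5-/- and -0.08 in double null against Irx5+/- hearts (adjusted p = 0.848 and 0.969 in limma). The sarcomere means of double null arrays (11.97 to 12.43) did not overlap those of Irx5+/- arrays (10.13 to 11.93), though those of Irx5-/- arrays (11.55 to 12.59) did. For the double null that fit therefore cannot tell sarcomere content from genotype. The part of sarcomere content in the Irx4 values was not tested.

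Irx1 and Irx2, the other genes of the chromosome 13 cluster, were called in 0 of 9 comparisons, as under each alternative tried, and neither had an unadjusted p under 0.05 in limma. Irx1 read 7.31, 7.42 and 7.49 in Irx5+/- hearts (7.41 ± 0.09, SD, n = 3) and 7.28, 7.23, 7.19 and 7.35 in Irx3-/-;Irx5+/- hearts (7.26 ± 0.07, SD, n = 4). It read 7.19, 7.49 and 7.38 in Irx5-/- (7.35 ± 0.15, SD, n = 3) and 7.49, 7.26, 7.73 and 7.20 in double null hearts (7.42 ± 0.24, SD, n = 4). The groups overlapped, and the pairwise differences of Irx1 ran from -0.14 to 0.16. All Irx1 values (7.19 to 7.73) lay below every array median (7.89 to 7.99), and how much of them is probe background was not tested.

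Irx2 read 8.71, 8.62 and 8.75 in Irx5+/- hearts (8.69 ± 0.07, SD, n = 3) and 8.82, 8.95, 8.73 and 8.86 in Irx3-/-;Irx5+/- hearts (8.84 ± 0.09, SD, n = 4). It read 8.56, 8.90 and 8.69 in Irx5-/- (8.71 ± 0.17, SD, n = 3) and 8.92, 8.67, 9.13 and 8.64 in double null hearts (8.84 ± 0.23, SD, n = 4). Its pairwise differences ran from -0.13 to 0.15, with overlap throughout. Against Irx5+/-, the 95% interval in double null hearts was -0.12 to 0.42 for Irx2 and -0.25 to 0.29 for Irx1. Double null replicate 3 held the highest signal of Irx1 (7.73), Irx2 (9.13) and Irx4 (9.73) in the series and the lowest of Irx5 (7.52).

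Of 15 pairs of members, Irx1 and Irx2 had the highest r over all 14 arrays. Their r on deviations from group means was 0.89 (exact within-group permutation p = 0.00405, adjusted p = 0.0608) and rho was 0.82 (exact permutation p = 0.0129, adjusted p = 0.194). Without the 2 arrays farthest from the Irx1 median r was 0.70 (exact permutation p = 0.104), below the 0.77 of Irx1 with Irx5 on the same arrays (exact permutation p = 0.0156, adjusted p = 0.234), a pair at -0.29 over all 14. No pair passed the adjustment, and the arrays share amplification and tissue content.

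Residual spread differed between the members. Irx3 had a residual SD of 0.10, at percentile 8.21 of all genes, Irx1 and Irx2 0.16, Irx6 0.19 and Irx5 0.25, beside a median of 0.186 over all genes. The median member difference was -0.04 in Irx3-/-;Irx5+/-, -0.16 in Irx5-/- and -0.13 in double null against Irx5+/- hearts, beside 0.00, -0.03 and -0.03 over all genes. These comparisons share the 3 reference arrays.

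Genes most like each member were taken by Pearson's r over the 14 arrays, as a description with no test. Irx5 was followed most closely by the kinase gene Snrk (r = 0.93), the adhesion receptor gene Adgrg6 (0.92) and Klhl4 (0.91), and r for Snrk stayed at 0.91 after removing group means. Irx4 was followed by the mitochondrial ribosomal protein gene Mrpl34 (0.95), Retreg1 (0.94) and an immunoglobulin variable segment (0.92). Irx3 was followed by the extracellular hemicentin gene Hmcn1 (0.82), Prr29 (0.80) and Tagap (0.80), but these r values were 0.35, 0.26 and 0.15 after removing group means. Those of the 3 genes named for Irx4 were 0.93, 0.94 and 0.90 after the same step.

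Irx1 was followed by the synaptic vesicle gene Syn2 (r = 0.92), Pop7 (0.86) and the water channel gene Aqp2 (0.85). Irx2 was followed by Nt5c1a (0.90), Cd83 (0.89) and Rpl32l (0.87). Irx6 was followed by the potassium channel gene Kcnk4 (0.90), Olfm5 (0.90) and Gfi1b (0.89). Mean log2 signals of Tagap (6.97), the immunoglobulin segment (7.49), Syn2 (7.63), Nt5c1a (6.85), Cd83 (6.86) and Olfm5 (7.77) lay below every array median (7.89 to 7.99). Those of the other genes named as most like a member lay above.

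Genes next to the clusters were compared with the members. Of 12 measured neighbours of the chromosome 8 cluster, limma called 0 in any comparison. At an unadjusted p under 0.05, 1 was higher and 1 lower in Irx3-/-;Irx5+/- hearts (2.85% and 2.22% of all genes), 0 either way in Irx5-/- (5.99% and 4.66%) and 1 lower in double null hearts (5.56%), each against Irx5+/-. Crnde, a long RNA gene 1.7 kb from Irx5, read 7.51, 7.91 and 7.84 in Irx5+/- hearts, 8.35, 7.92, 9.08 and 8.16 in Irx3-/-;Irx5+/-, 7.17, 7.46 and 7.67 in Irx5-/- and 8.17, 7.64, 7.83 and 7.55 in double null hearts. Every Irx3-/-;Irx5+/- array lay above every array of the reference, as for 2.86% of all genes, though only by 7.92 against 7.91. Every Irx5-/- array lay below them, as for 5.43% of all genes. The Crnde difference was 0.63 ± 0.24 (SE; adjusted p = 0.947 in limma) for Irx3-/-;Irx5+/- against Irx5+/- and -0.94 ± 0.24 (adjusted p = 0.758) for Irx5-/- against Irx3-/-;Irx5+/-.

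In the additive model Crnde had 0.49 ± 0.17 (SE; adjusted p = 1 in limma) for loss of Irx3 and -0.47 ± 0.16 (adjusted p = 0.222) for loss of Irx5, neither called. Irx3os, a transcript 1.7 kb from Irx3 that was added after its values were seen, had -0.08 ± 0.07 and -0.14 ± 0.07 (adjusted p = 1 and 0.329). For loss of Irx5 the median of the 12 neighbours was -0.03, the same as over all genes, with 5 above 0 and 7 below.

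**Figure D4:**
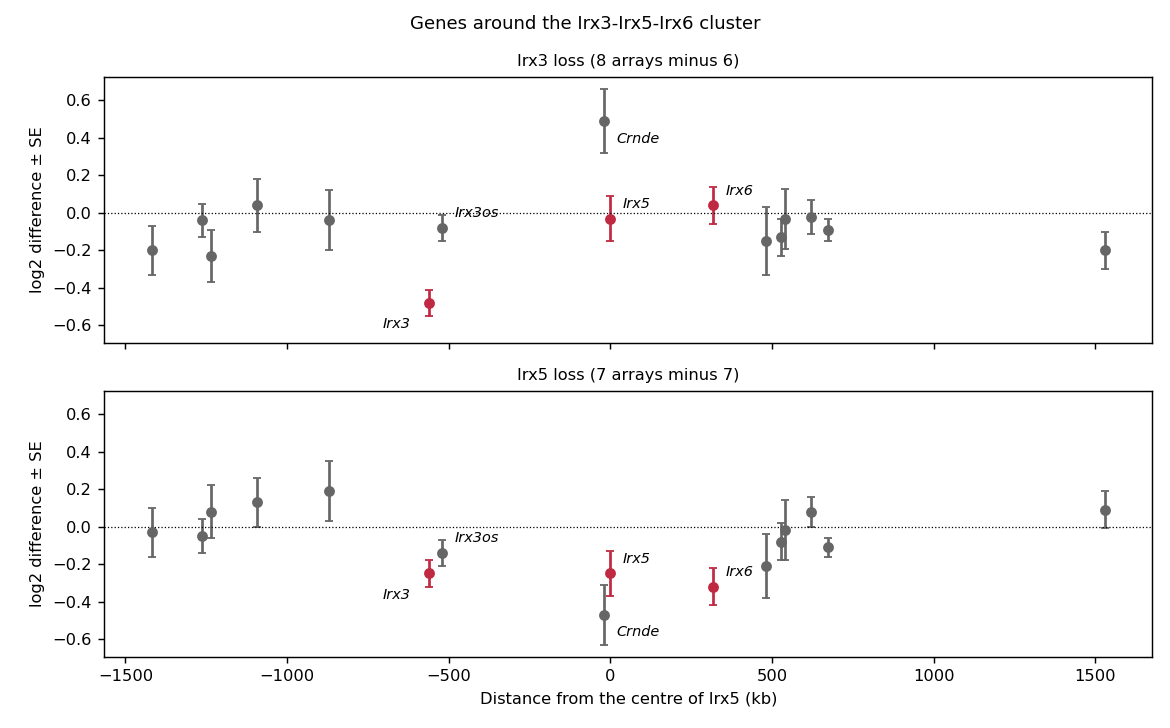
Additive log2 differences (points) with SE (bars) for loss of Irx3 (top) and of Irx5 (bottom), by distance of each gene's centre from the centre of Irx5 in kb. Red points are Irx3, Irx5 and Irx6, grey points the neighbouring genes. With loss of Irx5 the members lie at -0.25, -0.25 and -0.32 and Crnde at -0.47, and with loss of Irx3 the member away from 0 is Irx3 at -0.48.

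On chromosome 13, limma called 0 of 23 measured neighbours in any comparison. For loss of Irx5, 6 had an unadjusted p under 0.05 in the higher direction and 2 in the lower, against 8.07% and 7.24% of all genes. The smallest p was that of Mrpl36, a mitochondrial ribosomal protein gene, at 0.64 ± 0.14 (SE; adjusted p = 0.103 in limma). Ndufs6, a complex I subunit gene, had the smallest p in double null against Irx5+/- hearts, at 0.95 ± 0.25 (adjusted p = 0.158).

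Of the other TALE homeobox genes, 11 of 12 listed were measured and limma called 0. Pbx2, which encodes a common DNA-binding partner of homeodomain proteins, differed by 0.50 ± 0.14 (SE; adjusted p = 0.171 in limma) in double null against Irx5+/- hearts. Pknox2 differed by -0.60 ± 0.17 (adjusted p = 0.798) in Irx3-/-;Irx5+/- against Irx5+/- hearts. In double null hearts 1 TALE gene had an unadjusted p under 0.05 in each direction, against 7.9% of all genes higher and 5.56% lower, and the list's median was -0.07.

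A list of 27 genes reported as partners or targets of Iroquois factors in heart had 26 measured members, and 0 were called in any comparison. In double null against Irx5+/- hearts 10 of 26 had an unadjusted p under 0.05 and were higher, as for 7.9% of all genes, and 0 were lower. The median was 0.25 there, beside -0.03 over all genes. Against the same reference, 6 members were higher at that p in Irx3-/-;Irx5+/- hearts (2.85% of all genes; median 0.10) and 4 in Irx5-/- hearts (5.99%; median 0.19), and 0 were lower. Gja5, a connexin gene of the atria and trabeculae, differed by 2.10 ± 0.47 (SE; adjusted p = 0.122 in limma) in double null hearts, and the atrial myosin light chain gene Myl7 by 1.57 ± 0.33 (adjusted p = 0.111). Bmp10, a growth factor of the trabeculae, had an additive term of 0.98 ± 0.20 for loss of Irx3 (adjusted p = 1). Its signal of 5.82 to 7.75 over all arrays lay below every array median (7.89 to 7.99), and how much of it is probe background was not tested. The list holds sarcomere genes, and the sarcomere mean was 11.07 ± 0.90 (SD, n = 3) in Irx5+/- and 12.19 ± 0.20 (SD, n = 4) in double null hearts; its part in these values was not tested.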

How the data were processed

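The authors deposited log2 intensities per probe set, computed by RMA in the R package affy from all arrays jointly, per the file headers. Per the labels' protocols, each sample had 1 ng of PicoPure total RNA amplified (NuGEN WT-Ovation FFPE V2). No source used here gives versions or the genome build. Of 28763 deposited probe sets, 21776 had 1 gene symbol, 1592 several and 5395 none. The probe set with the highest mean over 14 arrays stood for each of 19931 genes.

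Log2 values were used as deposited. limma 3.58.1 (R 4.3.3) fitted 4 group means (10 residual degrees of freedom), or additive terms for loss of Irx3 and Irx5 (11), with Benjamini-Hochberg adjustment over all genes. A call was an adjusted p under 0.05, 2-sided. Errors are SD for group means and SE for differences. Correlations used deviations from group means and a 2-sided exact test over 20736 within-group permutations. The fit was tested on simulated data.

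Members and lists were chosen with earlier results of these data known. Named were the members, the 3 genes with the highest r to each (without predicted genes, chemosensory receptors and small RNAs), and up to 2 genes per list with the smallest p where none was called. Irx3os was added afterwards. Alternatives changed the block, variance trend, scaling, filter, probe sets, arrays, cell-content covariates and the group of the 1 array whose labels conflict.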

Additional observations from a re-analysis of the deposited data

How the results depend on the processing

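Log2 differences under the alternatives were tallied for Irx3 in all 9 comparisons and for Irx4, Irx5 and Irx6 in a chosen part of them. Those of Irx1 and Irx2 and of the remaining comparisons, some of them near 0, are not in the tally. Of the tallied differences, 406 kept their direction and side of the threshold, 9 turned, 4 gained a call and 8 lost one. Turned values were those of Irx5 with the endothelial mean as a covariate (0.08, 0.21 and 0.27 in Irx3-/-;Irx5+/-, Irx5-/- and double null hearts against Irx5+/-, 0.18 for the double null against Irx3-/-;Irx5+/-, 0.19 for the additive loss of Irx5), of Irx4 with the sarcomere mean (-0.21 and -0.08 in Irx5-/- and double null hearts), of Irx4 in Irx5-/- hearts without Irx5-/- replicate 2 (0.00; 0.00 to 0.66 over arrays left out) and of the Irx3 interaction without double null replicate 1 (-0.01; -0.01 to 0.10). Why they moved was not tested.

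For double null against Irx5+/- hearts, the 4 genes called became 0 with the replicate block, the sarcomere or the endothelial covariate, 14 over all probe sets, 15 with only the groups compared, and 0 to 23 with 1 array left out (0 without Irx5+/- replicate 2, 23 without Irx5+/- replicate 1, 10 without double null replicate 2, and 1 without double null replicate 3 or 4). The 1 member called, Irx3, became 0 with the replicate block (-0.75, adjusted p = 0.153 in limma), with only the groups compared (-0.74, 0.0759), and with the sarcomere (-0.71, 0.174) or endothelial covariate (-0.63, 0.406), and ran from 0 to 1 with 1 array left out. Over the other settings its adjusted p ran from 0.006 to 0.406.

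For double null against Irx3-/-;Irx5+/- hearts, 1 gene called became 0 with the replicate block, median-centred arrays, only the groups compared, either covariate, Irx3-/-;Irx5+/- replicate 4, whose labels conflict, placed in Irx5-/- and each array left out, and 5 over all probe sets. Against Irx5-/- hearts, 0 became 2 with a mean-variance trend and ran from 0 to 1 with 1 array left out (1 without double null replicate 4). For Irx5-/- against Irx5+/- hearts, 0 became 1 without Irx5+/- replicate 1 or Irx5-/- replicate 2. For the additive loss of Irx3, 0 genes and 0 members became 1 gene and 1 member, Irx3, with median-centred arrays (-0.49, adjusted p = 0.0197), quantile normalization (-0.49, 0.018), that replicate 4 placed in Irx5-/- (-0.51, 0.00737) or left out (-0.52, 0.0264), and 1 gene without Irx5-/- replicate 2. In the remaining fits of that term Irx3 was not called, with adjusted p up to 0.935 in limma. For the additive loss of Irx5, 1 gene became 2 with the trend, 3 with quantile normalization, 4 over all probe sets, 0 with the dimmest genes left out, either covariate or that replicate 4 moved, and 1 to 14 with 1 array left out (3 without Irx3-/-;Irx5+/- replicate 1 or 2, 6 and 14 without double null replicates 1 and 2). Gene and list correlations past the adjustment went from 0 to 3 of 60 with values not centred by group, an alternative chosen after seeing the data.

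Over 19 same-number pairs of arrays, the correlation of deviations from group means ran from -0.18 to 0.19. Pairs of different numbers were not compared, so these values cannot show whether same-number arrays were handled together. In simulated data for double null against Irx5+/- hearts, 80 of 100 genes shifted by a fold of 2 were recovered, with 200 of 19931 genes shifted; with so few real calls that share does not carry over.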
